A study of Saccharomyces cerevisiae with 94 samples.

Results

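The galactose pathway genes of budding yeast, Saccharomyces cerevisiae, were followed by RNA-seq in both strains over all time points. The 10 genes were chosen by name from the 6444 genes listed. They were the structural genes GAL1 (YBR020W), GAL7 (YBR018C), GAL10 (YBR019C) and PGM2 (YMR105C), the transporter gene GAL2 (YLR081W), the regulators GAL4 (YPL248C), GAL80 (YML051W) and GAL3 (YDR009W), and the associated genes GCY1 (YOR120W) and MTH1 (YDR277C). All 10 passed the filter on low values.

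The libraries came from 2 strains in the W303 background. Both were MATa with the rad5-535 and can1-100 alleles and the auxotrophic markers trp1-1, ade2-1, leu2-3, 112, ura3-1 and his3-11, 15, and both lacked SML1, which encodes an inhibitor of ribonucleotide reductase. In sml1Δ, the control, SML1 was replaced by URA3. In sml1Δ SSDDCS (SSDDCS below), SML1 was replaced by an Hph marker (HphNT in the labels, HphMX in the study's strain table), and 6 replication factors were driven by added copies of the bidirectional GAL1-10 promoter: Sld7-PGAL1-10-Cdc45 at leu2 with LEU2, SLD3-A-PGAL1-10-Dbf4-A at his3 with HIS3, and Sld2-PGAL1-10-Dpb11 at trp1 with TRP1. Cells grown in raffinose were arrested in G1 with the mating pheromone alpha factor, received galactose 30 min before the G1 sample, and were released into galactose medium, with samples at 5, 10, 15, 20, 25, 30, 35, 40, 45, 50 and 60 min. Each group held 4 replicates except 25 min, which held 3 in each strain, giving 94 libraries. No sample was taken before galactose, so every level described here is that of cells already induced.

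Galactose enters the cell through the permease Gal2. The kinase Gal1, the uridylyltransferase Gal7 and the epimerase and mutarotase Gal10 convert it to glucose 1-phosphate, which phosphoglucomutase (mainly Pgm2) turns into glucose 6-phosphate for glycolysis. Transcription of these genes depends on the activator Gal4. Without galactose Gal4 is bound and held inactive by Gal80. With galactose the sensor Gal3, a relative of Gal1 without kinase activity, binds Gal80 and frees Gal4. Raffinose neither induces nor strongly represses the system, which glucose shuts off through the Mig1 repressor. GCY1 encodes a glycerol dehydrogenase of the aldo-keto reductase family whose transcription is raised by Gal4, and MTH1 encodes a regulator that keeps hexose transporter genes repressed when glucose is absent.

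Gal4 binds a palindrome made of CGG, 11 bases of any kind and CCG. This motif was searched in the 600 bases before the start codon of each gene in the R64 reference sequence, which is that of strain S288C and not W303. Because the motif reads alike on both strands, one search covered both. It was found at least once before 210 of 5999 protein-coding genes with a full window (3.5%), and before 9 of the 10 galactose genes. At least 3 matches stood before only 3 genes, all of them members, namely GAL1, GAL10 and GAL2. A match describes letters, not bound factor. The following stretches are shown because they carry the matches of the most strongly expressed members, with CGG and CCG in capitals. The stretch between the divergent genes GAL10 and GAL1, whose start codons lie 668 bases apart, lies in the GAL1-10 promoter, the one used to drive the added factors in SSDDCS.
GAL10-GAL1, chrII:278558-278631, plus strand: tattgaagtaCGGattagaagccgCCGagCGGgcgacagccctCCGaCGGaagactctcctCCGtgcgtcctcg
GAL2, chrXII:289672-289910, plus strand: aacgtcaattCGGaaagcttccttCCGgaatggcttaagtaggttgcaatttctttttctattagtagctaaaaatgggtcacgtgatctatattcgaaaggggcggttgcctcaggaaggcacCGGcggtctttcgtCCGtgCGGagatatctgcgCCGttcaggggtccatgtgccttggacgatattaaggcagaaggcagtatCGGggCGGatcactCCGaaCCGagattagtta
GAL7, chrII:275693-275729, minus strand: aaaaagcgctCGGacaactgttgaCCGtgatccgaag

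The GAL10-GAL1 stretch held 3 matches and the GAL2 stretch 5, the last pair of which overlap by shared letters, while GAL7 had 1 match. The regulators and associated genes each had a single match, with the exception of PGM2, which had none in this window. Their sites are shown because members with 1 site differed widely in level.
GAL3, chrIV:463146-463162, plus strand: CGGtccactgtgtgCCG
GAL80, chrXIII:171422-171438, plus strand: CGGcgcactctcgcCCG
GAL4, chrXVI:82810-82826, minus strand: CGGtggcgcaggatCCG
GCY1, chrXV:550745-550761, plus strand: CGGggcagactattCCG
MTH1, chrIV:1016155-1016171, minus strand: CGGggaaatggagtCCG

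The genes lie on chromosomes II, IV, XII, XIII, XV and XVI. GAL7 (chrII:274427-275527), GAL10 (chrII:276253-278352) and GAL1 (chrII:279021-280607) form 1 cluster. GAL2 lies at chrXII:290212-291936, GAL3 at chrIV:463434-464996, GAL80 at chrXIII:171594-172901, GAL4 at chrXVI:79711-82356, GCY1 at chrXV:551114-552052, PGM2 at chrXIII:475897-477606 and MTH1 at chrIV:1014401-1015702 (coding sequences). In each of the 10 genes 100% of the stretches of 50 bases occur once in the reference, so near-identical copies are no concern. The nearest pair compared, PGM2 and PGM1, shared 72.5% of aligned bases and 0 stretches of 50, and GAL1 and GAL3 shared 69% and 0. No use of strand was described in the counting, so reads of GAL1 and GAL10 cannot be told apart from those of the overlapping noncoding gene YNCB0008W, nor reads of GAL4 from YNCP0002W. GCY1 likewise has a neighbouring listed row, YOR121C, with no position in the annotation used, whose strain differences followed those of GCY1 (log2 -0.85 at 50 min against -0.89 for GCY1).

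Values are normalised reads, that is, reads in a gene divided by the size factor of the library. Libraries held 8119387 to 21677438 reads in genes, and replicate 1 was the deepest in both strains (medians of 20480360 in sml1Δ and 15435433 in SSDDCS, against 9270036 to 10373375 in the other replicates). The labels held against marker genes: all 6 added factors were higher in SSDDCS in every library at all 12 time points. The a-type genes MFA1, MFA2, STE2 and BAR1 reached 10546 to 21912, and the alpha-type genes MFALPHA1, MFALPHA2 and STE3 never passed 252. Of the latter, STE3 was called higher in SSDDCS at 8 time points, MFALPHA1 at 4 and MFALPHA2 at 1. Their part in the values below was not tested. A gene was called when its adjusted p was under 0.01 in limma's moderated test on log2(value + 1), adjusted over the 6414 genes tested. The replicates were biological by the study's description. A fold in RNA level refers to the whole culture, and fewer expressing cells and less RNA per cell cannot be told apart.

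The 4 most abundant members were GAL1, GAL2, GAL10 and GAL7, which together held 1.51% ± 0.149 (SD, n = 4) of all normalised reads in sml1Δ in G1 and 2.67% ± 0.455 at 60 min, and in SSDDCS 1.74% ± 0.204 and 2.53% ± 0.248. GAL1 ranked between 9 and 21 among all genes in every library. Per kilobase of coding sequence the order in G1 was the same for the leading genes in both strains: in sml1Δ GAL1 stood at 32894 normalised reads per kb, GAL2 at 28779, GAL7 at 24382, GAL10 at 19862 and GCY1 at 12960. The replicate ranges of GAL1 and GAL2, of GAL2 and GAL7 and of GAL7 and GAL10 overlapped, while those of GAL10 and GCY1 did not. A wide gap followed GCY1. In sml1Δ in G1 GAL80 stood at 2374, GAL3 at 2219, MTH1 at 2055 and PGM2 at 1671 per kb, each range overlapping the next, and GAL4 was last at 203 with no overlap.

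**Figure D1:**
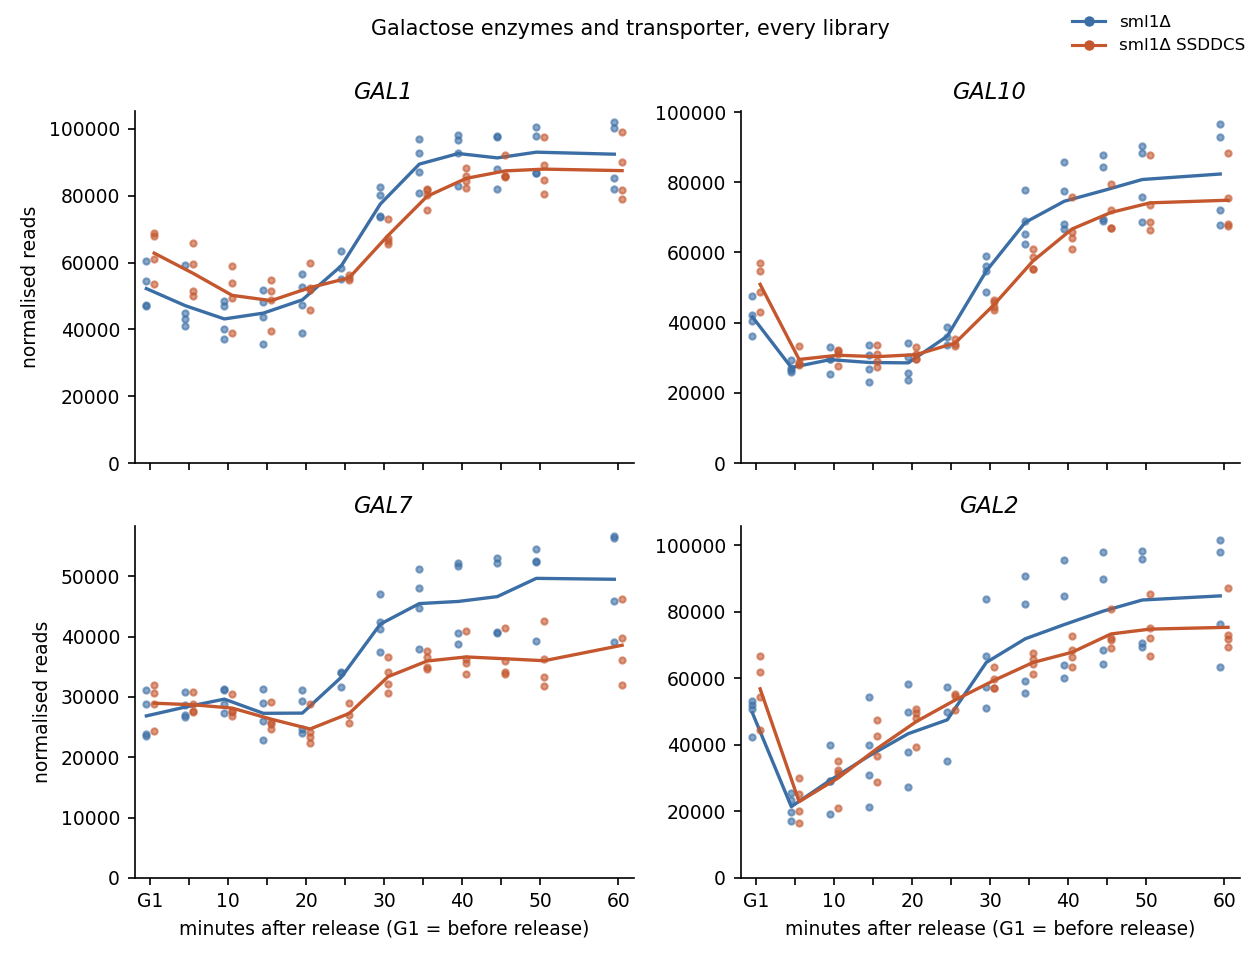
Normalised reads of GAL1, GAL10, GAL7 and GAL2 against minutes after release, 1 point per library, with lines through the group means of sml1Δ and SSDDCS. GAL10 and GAL2 dip at 5 min and all group means end above their G1 level in both strains. For GAL7 the SSDDCS mean lies below that of sml1Δ from 10 min on.

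The first question was how the induced genes moved over the time points that followed release. Time in galactose, the change of medium at release, the removal of pheromone and the cell cycle ran together. Their parts in the changes below cannot be told apart. Over the 12 time points, 9 of the 10 members changed in each strain (limma F-test of 11 differences from G1), PGM2 being the exception (adjusted p = 0.0351 in sml1Δ and 0.63 in SSDDCS). This share lay close to the background, since 83.5% of all tested genes were called in sml1Δ and 86.8% in SSDDCS. Between G1 and 5 min, 5 members fell in sml1Δ (48.8% of all genes were called in either direction) and the same 5 fell in SSDDCS (53.2% of all genes), and none rose. They were GAL2, GAL4, GAL3, GAL10 and MTH1. The median over the members was -0.65 in sml1Δ and -0.84 in SSDDCS on the log2 scale, beside -0.03 and -0.0049 over all genes.

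GAL1, the kinase, read 60323, 47212, 46873 and 54403 in the sml1Δ G1 libraries and 53579, 67834, 60942 and 68850 in those of SSDDCS. At 60 min the values were 85331, 100335, 101934 and 81966 in sml1Δ and 81729, 79067, 90204 and 98892 in SSDDCS. The 60 min libraries were thus above every G1 library of their strain. How many of all genes separated in this way between times was not counted. The rise from G1 to 60 min was 0.82 ± 0.11 (SE) on the log2 scale in sml1Δ (adjusted p = 3.15e-09) and 0.48 ± 0.11 in SSDDCS (adjusted p = 0.000302, limma). The SSDDCS call was lost under quantile normalisation (0.32, adjusted p = 0.0285).

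GAL10, which shares the promoter with GAL1, read 47678, 40589, 36314 and 42262 in sml1Δ in G1 and 29355, 27141, 26521 and 25900 at 5 min. In SSDDCS it went from 43068, 57050, 48781 and 54837 to 28890, 33271, 28150 and 27836. The groups did not overlap in either strain, and the fall was 0.61 ± 0.11 (SE) in sml1Δ and 0.78 ± 0.11 in SSDDCS on the log2 scale (adjusted p = 1.75e-06 and 3.74e-09). Of all genes 48.8% in sml1Δ and 53.2% in SSDDCS were called at 5 min in either direction. The share without overlap was not counted. For GAL1 the same change was -0.16 (adjusted p = 0.22) and -0.15 (adjusted p = 0.239) and did not pass the test. The ratio of GAL1 to GAL10 within a library ran from 1.16 to 1.29 in all G1 libraries and from 1.54 to 2.06 at 5 min, with no overlap over the 8 replicates, and had returned to 1.04 to 1.26 at 60 min. This ratio was chosen after its values were seen and was not tested. GAL10 recovered late, reaching 96564 in 1 sml1Δ library at 60 min, and rose from G1 to 60 min by 0.97 (SE 0.11, adjusted p = 1.11e-11) in sml1Δ and 0.56 (SE 0.11, adjusted p = 2.61e-05) in SSDDCS.

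GAL2, the permease, had the largest change at 5 min among the called members. The sml1Δ values were 53284, 50786, 42380 and 52123 in G1 and 25583, 23392, 19700 and 16947 at 5 min, while SSDDCS went from 44478, 66590, 54430 and 61841 to 29883, 25214, 20003 and 16497. Every 5 min library was below every G1 library, and the share of all genes for which this held was not counted. The log2 change was -1.23 ± 0.20 (SE) in sml1Δ and -1.33 ± 0.20 in SSDDCS (adjusted p = 4.09e-07 and 5.13e-08). From 5 min to 60 min its group mean went from 21405 to 84784 in sml1Δ and from 22899 to 75338 in SSDDCS, 3.96-fold and 3.29-fold apart, which are the lowest and highest means of the course. Against G1 the 60 min level was higher in sml1Δ by 0.75 (SE 0.20, adjusted p = 0.0027), a call lost without sml1Δ replicate 2 (0.67, adjusted p = 0.0107) or replicate 3 (0.60, adjusted p = 0.0558) and under quantile normalisation (0.41, adjusted p = 0.161). In SSDDCS the difference of 0.42 did not pass (adjusted p = 0.0952).

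GAL7, the uridylyltransferase, had no early dip. It read 31086, 23567, 23915 and 28810 in sml1Δ in G1 and 30809, 26707, 27010 and 28723 at 5 min, a log2 difference of 0.08 that did not pass. At 60 min it read 39173, 56327, 56628 and 45851 in sml1Δ and 36142, 32040, 39764 and 46291 in SSDDCS. The rise from G1 to 60 min was 0.88 (SE 0.11, adjusted p = 1.48e-09) in sml1Δ and 0.41 (SE 0.11, adjusted p = 0.00287) in SSDDCS. The SSDDCS call was lost without SSDDCS replicate 1 (0.35, adjusted p = 0.0387), replicate 3 (0.39, adjusted p = 0.0345) or replicate 4 (0.35, adjusted p = 0.0315).

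At 30 min, 4 members were called against G1 in sml1Δ, where 52.7% of all genes were: GAL1 (0.58), GAL7 (0.65) and GAL10 (0.40) were higher and GCY1 was lower (-1.32). The GAL10 call was lost under quantile normalisation (0.23, adjusted p = 0.0711). In SSDDCS 4 members were called as well, beside 53.4% of all genes: GAL4 (0.47), GAL80 (0.34) and MTH1 (0.65) were higher and GCY1 was lower (-1.48). MTH1 was also higher in sml1Δ in 4 of 4 replicates (0.51), but did not pass in limma (adjusted p = 0.0204). It passed with a limma replicate block within each strain (adjusted p = 0.00248) or across strains (0.00921). The strains differed in this MTH1 change by 0.13 (limma, adjusted p = 0.783). At 60 min GAL1, GAL2, GAL7 and GAL10 were higher than in G1 in sml1Δ (4 members, 22.1% of all genes), and GAL1, GAL7 and GAL10 were higher and GAL80 lower in SSDDCS (4 members, 28.3% of all genes). The GAL80 fall was 0.26 (log2 -0.26, adjusted p = 0.00319) and did not pass in 4 leave-one-out fits, without SSDDCS replicate 1 (-0.28, adjusted p = 0.0118), replicate 2 (-0.24, adjusted p = 0.0426), replicate 3 (-0.27, adjusted p = 0.0183) or replicate 4 (-0.26, adjusted p = 0.0181). It did not pass with libraries scaled to equal totals (-0.19, adjusted p = 0.044) or under quantile normalisation (-0.099, adjusted p = 0.296). The median over the members at 60 min was 0.55 in sml1Δ and 0.33 in SSDDCS, beside -0.01 over all genes in both.

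**Figure D2:**
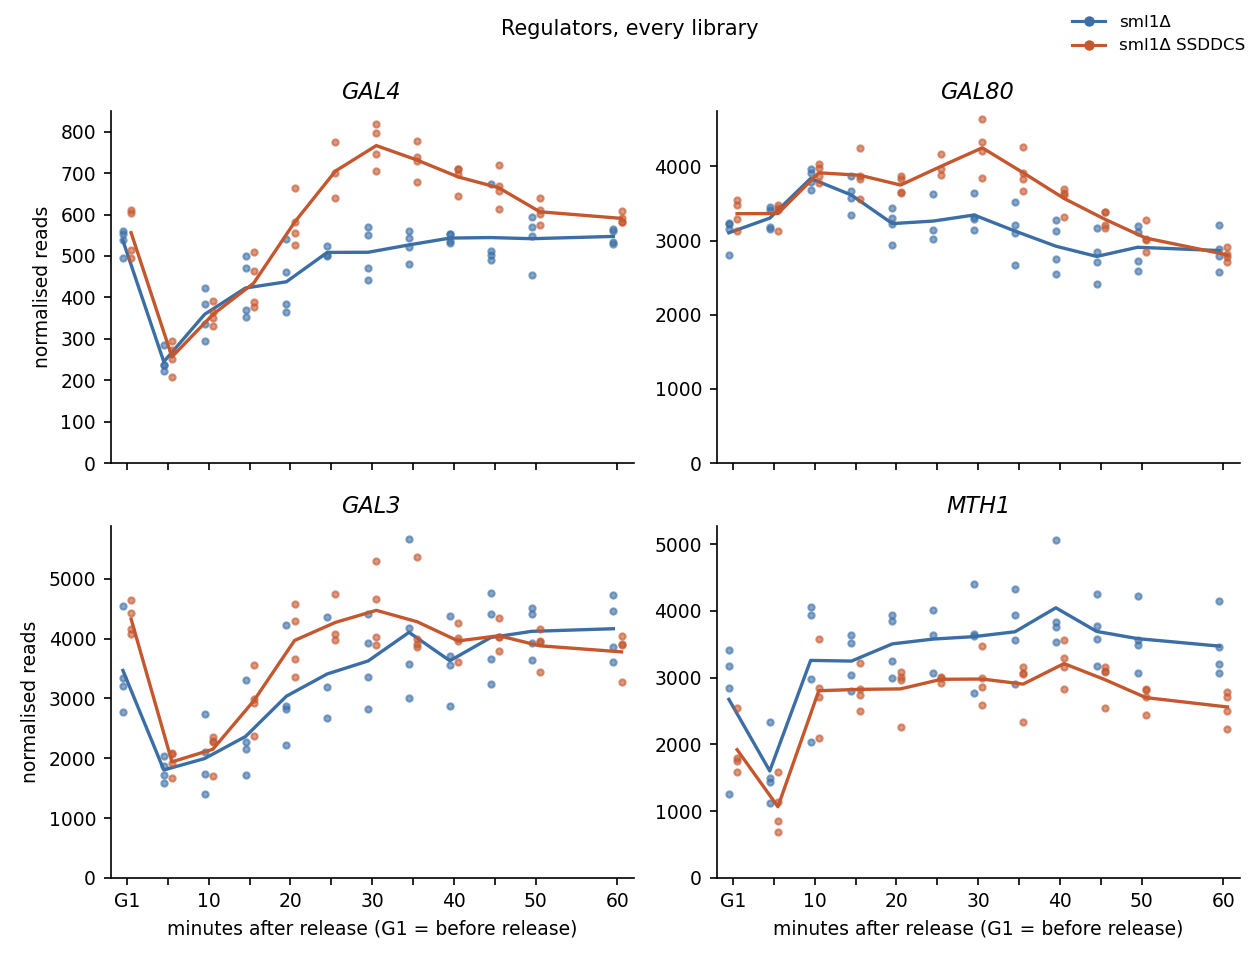
Normalised reads of GAL4, GAL80, GAL3 and MTH1 against minutes after release, 1 point per library, with lines through the group means. GAL4 and GAL80 in SSDDCS lie above sml1Δ around 30 min (GAL4 at 704 to 819 against 443 to 571), and GAL4, GAL3 and MTH1 dip at 5 min.

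GAL4, the activator, was the least abundant member. It read 554, 560, 539 and 495 in sml1Δ in G1 and 222, 284, 236 and 237 at 5 min. In SSDDCS it read 612, 515, 604 and 494 and then 294, 209, 251 and 272. The log2 changes were -1.14 (SE 0.11, adjusted p = 2.46e-15) in sml1Δ and -1.12 (SE 0.11, adjusted p = 4.63e-15) in SSDDCS. Within each strain every replicate fell.

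GAL3, the sensor, read 4554, 3205, 2776 and 3339 in sml1Δ in G1 and 1865, 2046, 1590 and 1714 at 5 min. In SSDDCS it read 4076, 4649, 4432 and 4158 and then 2071, 2094, 1922 and 1672. The fall was 0.92 in sml1Δ (log2 -0.92, SE 0.17, adjusted p = 3.78e-06) and 1.16 in SSDDCS (log2 -1.16, SE 0.17, adjusted p = 1.81e-08). GAL80, the inhibitor that Gal3 binds, did not pass at 5 min in either strain (0.09 and 0.00). Its group means moved least of all members, 1.38-fold from lowest to highest in sml1Δ and 1.51-fold in SSDDCS.

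MTH1 read 1262, 2842, 3415 and 3182 in sml1Δ in G1 and 1129, 2341, 1497 and 1441 at 5 min. The first replicate of sml1Δ was thus low already in G1. In SSDDCS MTH1 read 1589, 1798, 1757 and 2542 and then 1588, 685, 1144 and 846. The log2 changes were -0.69 (SE 0.20, adjusted p = 0.00208) and -0.90 (SE 0.20, adjusted p = 7.26e-05). The sml1Δ call was lost without sml1Δ replicate 3 (-0.53, adjusted p = 0.0419) or replicate 4 (-0.54, adjusted p = 0.0433), and that of SSDDCS without SSDDCS replicate 4 (-0.67, adjusted p = 0.0128). By 40 min the group means had reached 4048 and 3211, the highest of the course in each strain. The 30 min call in SSDDCS was lost without SSDDCS replicate 1 (0.56, adjusted p = 0.0368) or replicate 3 (0.54, adjusted p = 0.0531).

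The second question was whether the galactose genes differed between the strains, since SSDDCS holds added copies of the GAL1-10 promoter. In G1 no member was called (0.655% of all genes were), with 4 members at an unadjusted p under 0.05. The same held at 5 min (0 members called, 2 at an unadjusted p under 0.05, 0.421% of all genes called), at 10 min (0 called, 0 at an unadjusted p under 0.05, 0.343% of all genes called) and at 15 min (0 called, 1 at an unadjusted p under 0.05, 2.85% of all genes called). DESeq2 and edgeR on recovered reads also called 0 members at these times. In G1 GAL1 differed by log2 0.27 (95% interval 0.05 to 0.49, adjusted p = 0.438), GAL10 by 0.29 (0.07 to 0.50, adjusted p = 0.337), GAL2 by 0.18 (-0.22 to 0.59) and GAL7 by 0.11 (-0.12 to 0.34), as SSDDCS minus sml1Δ.

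From 20 min on, differences were called in the regulators GAL4 and GAL80. The 20 min comparison called 1 member (18.1% of all genes). There were 2 called members in each comparison from 25 to 40 min, where 21.6% (25 min), 31.3% (30 min), 27.5% (35 min) and 19.8% (40 min) of all genes were called. The 45 min comparison called 1 member (13.5% of all genes) and the 50 min comparison 1 (9.2% of all genes). At 60 min 0 were called by limma, DESeq2 or edgeR (5.35% of all genes, 2 members at an unadjusted p under 0.05). Over the course, 11 of the 120 member-by-time comparisons were called: GAL4 was higher in SSDDCS at 5 time points, GAL80 higher at 5 and GAL7 lower at 1. The share of members called was at or below the share of all genes at most of these times. The count of 11 fell to 6 without sml1Δ replicate 3, 5 without SSDDCS replicate 1, 6 without SSDDCS replicate 3 and 7 without SSDDCS replicate 4, and to 3 (GAL4 at 30, 35 and 40 min) when each time point was fitted alone.

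GAL4 had the largest difference among the called members. At 20 min the sml1Δ libraries read 383, 542, 461 and 365 and those of SSDDCS 664, 581, 555 and 526. At 30 min they read 443, 551, 571 and 471 in sml1Δ and 798, 745, 819 and 704 in SSDDCS. The strains did not overlap at 25, 30, 35, 40 and 60 min, where 22.5%, 19.9%, 17.7%, 13.6% and 6.17% of all genes were higher in SSDDCS without overlap. At 30 min the difference was log2 0.60 (SE 0.11, 1.51-fold, adjusted p = 3.76e-06), and at 35 min it was 0.47 (SE 0.11, adjusted p = 0.000207), both kept whichever replicate was left out. At 20 min (0.42, SE 0.11, adjusted p = 0.0014) the call was lost without sml1Δ replicate 1 (0.36, adjusted p = 0.0142), sml1Δ replicate 4 (0.34, adjusted p = 0.016) or SSDDCS replicate 1 (0.36, adjusted p = 0.0192). At 25 min (0.47, SE 0.12, adjusted p = 0.00194) it was lost without sml1Δ replicate 3 (0.46, adjusted p = 0.01), SSDDCS replicate 1 (0.40, adjusted p = 0.0278) or SSDDCS replicate 3 (0.47, adjusted p = 0.0107). At 40 min (0.35, SE 0.11, adjusted p = 0.00872) only the fit without sml1Δ replicate 2 kept it, and the other 7 gave adjusted p between 0.0111 and 0.0288. By 60 min the difference was 0.11 (95% interval -0.10 to 0.32).

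GAL80 followed a similar course at a smaller size. At 30 min it read 3286, 3636, 3318 and 3141 in sml1Δ and 4326, 4634, 3842 and 4203 in SSDDCS, with no overlap, as also at 20, 25, 35 and 40 min (14.1% of all genes were higher without overlap at 20 min, and the other shares are those given for GAL4). The difference was log2 0.34 (SE 0.07, 1.27-fold, adjusted p = 8.94e-05) at 30 min and 0.33 (SE 0.07, adjusted p = 0.000208) at 35 min, both kept whichever replicate was left out. At 25 min it was 0.30 (SE 0.08, adjusted p = 0.00419), lost in 5 of 8 leave-one-out fits (without sml1Δ replicate 3 or 4, or SSDDCS replicate 1, 3 or 4, adjusted p between 0.012 and 0.0423). At 40 min it was 0.29 (SE 0.07, adjusted p = 0.00118), lost without SSDDCS replicate 4 (0.28, adjusted p = 0.0121). At 45 min it was 0.24 (SE 0.07, adjusted p = 0.00988), kept only without sml1Δ replicate 2. At 50 and 60 min the strains read 0.06 and -0.03 apart and did not pass.

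GAL3 did not pass at any time point. Its largest difference, at 20 min, was log2 0.41 (95% interval 0.07 to 0.76, adjusted p = 0.0608), from 2827, 4222, 2882 and 2223 in sml1Δ and 4289, 4579, 3657 and 3357 in SSDDCS, and these groups overlapped. It was called without sml1Δ replicate 2 (0.59, adjusted p = 0.00519). GAL3 lies 917 bases from TRP1, the gene used as the marker for 1 of the added cassettes, and the TRP1 row was higher in SSDDCS by log2 4.03 in G1. The part of that neighbourhood in the GAL3 values was not tested.

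GAL7 was lower in SSDDCS at 50 min, where sml1Δ read 39223, 52318, 54592 and 52450 and SSDDCS 33293, 31846, 36242 and 42586. The groups overlapped through sml1Δ replicate 1 and SSDDCS replicate 4. The difference was log2 -0.46 (SE 0.11, adjusted p = 0.00212). It was lost without sml1Δ replicate 3 (-0.41, adjusted p = 0.0181), SSDDCS replicate 1 (-0.43, adjusted p = 0.0177), SSDDCS replicate 2 (-0.41, adjusted p = 0.0191) or SSDDCS replicate 3 (-0.47, adjusted p = 0.0103), and under quantile normalisation (-0.40, adjusted p = 0.056). At 30 min the groups did not overlap (41294, 47016, 42445 and 37507 in sml1Δ against 30584, 36614, 32184 and 34040 in SSDDCS), with a difference of -0.33 that narrowly missed the threshold (adjusted p = 0.014) and passed it without sml1Δ replicate 4 (-0.39, adjusted p = 0.00711).

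The other structural genes were not called at any time point. At 30 min GAL1 read 82479, 80126, 73585 and 73771 in sml1Δ and 67275, 73109, 65617 and 66450 in SSDDCS, without overlap, yet the difference was log2 -0.19 (95% interval -0.40 to 0.03, adjusted p = 0.168). GAL10 read 56169, 59072, 48871 and 54760 against 45813, 44556, 43686 and 46554, also without overlap, at -0.27 (-0.49 to -0.06, adjusted p = 0.0354). GAL2 stood at -0.10 (-0.51 to 0.31). Among all tested genes 17% did not overlap with SSDDCS lower at this time and 19.9% with SSDDCS higher.

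**Figure D3:**
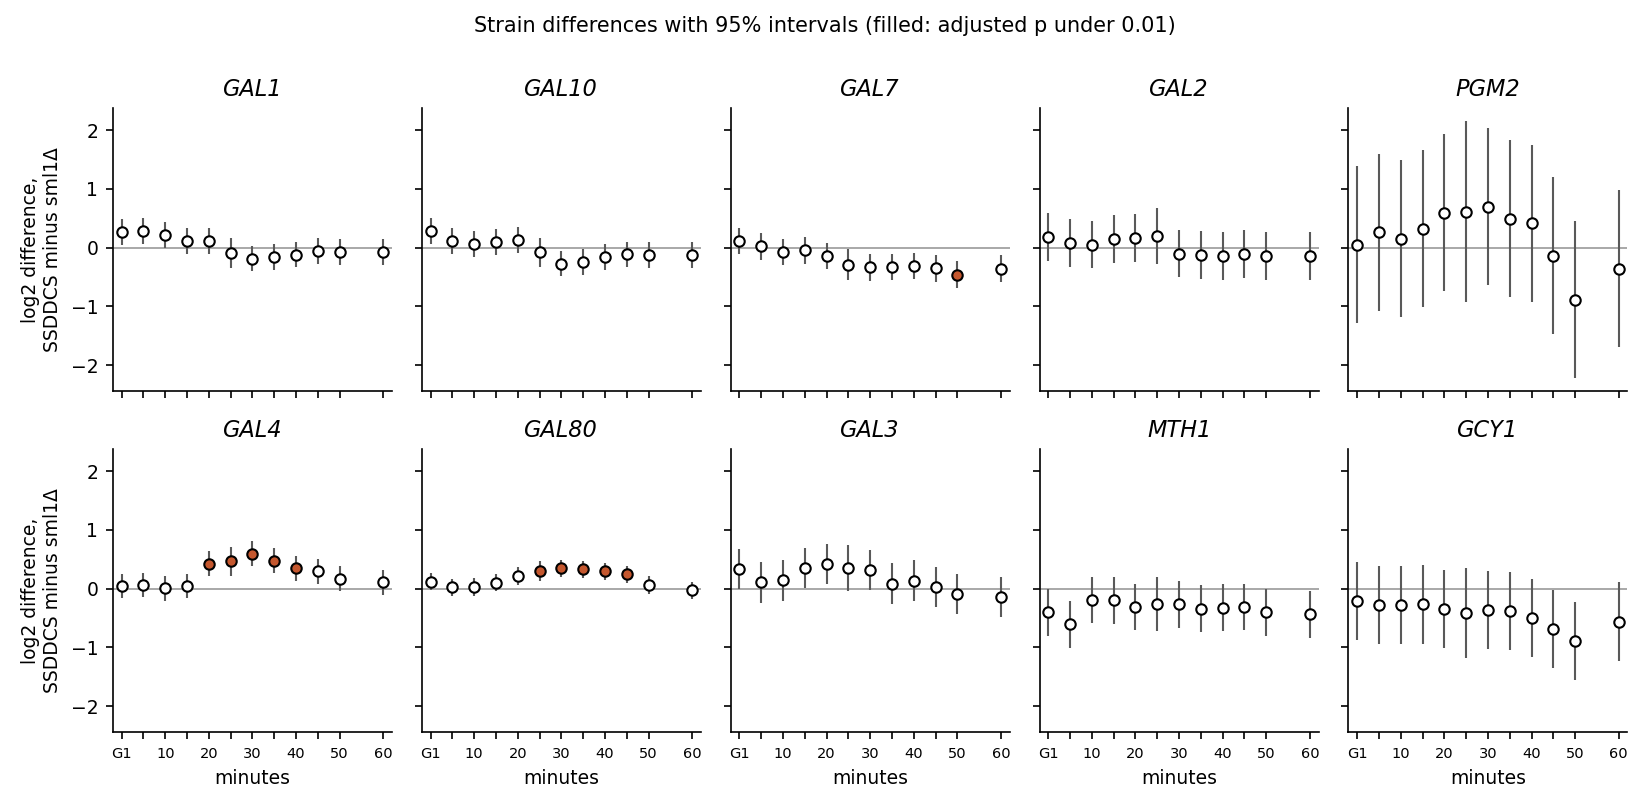
Log2 difference between strains (SSDDCS minus sml1Δ) at each time point for the 10 members, with 95% intervals from the limma fit, filled where the adjusted p was under 0.01. The filled points are GAL4 at 20 to 40 min, GAL80 at 25 to 45 min and GAL7 at 50 min, and the intervals of PGM2 are the widest.

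Whether the strains' courses differed in shape was tested as a strain-by-time interaction. It was called for 2 members, GAL4 (adjusted p = 0.0023) and GAL80 (adjusted p = 0.00693), beside 22.3% of all genes, with DESeq2 and edgeR also calling 2. In the main limma fit, which treats libraries as independent, GAL7 (adjusted p = 0.0357), GAL10 (0.0389) and GAL1 (0.0522) did not pass. After the group means were removed, libraries with the same strain and replicate number correlated at 0.376 (limma's consensus over genes). With a limma replicate block within each strain, added after the data were seen, GAL7 (adjusted p = 0.00196), GAL10 (0.00154) and GAL1 (0.00761) passed. The calls of GAL4 and GAL80 in the main fit were sensitive to single replicates. GAL80 was kept only without sml1Δ replicate 2 and otherwise reached an adjusted p of up to 0.139 (without SSDDCS replicate 1), and GAL4 was kept without sml1Δ replicate 2 or 4 and otherwise reached up to 0.0199 (without SSDDCS replicate 1). The count was 0 without sml1Δ replicate 3, SSDDCS replicate 1, SSDDCS replicate 2 or SSDDCS replicate 3. It was 1 without sml1Δ replicate 1 (GAL7, adjusted p = 0.00204), sml1Δ replicate 4 (GAL4, 0.00287) or SSDDCS replicate 4 (GAL1, 0.0075). The difference at 30 min relative to that in G1, a term added after the data were seen, was called for 2 members (12.8% of all genes), GAL4 upwards (0.55, SE 0.15, adjusted p = 0.00457) and GAL10 downwards (-0.56, SE 0.15, adjusted p = 0.00492). GAL4 was not called without sml1Δ replicate 1 (0.47, adjusted p = 0.031), SSDDCS replicate 2 (0.53, adjusted p = 0.0177), replicate 3 (0.56, adjusted p = 0.0145) or replicate 4 (0.53, adjusted p = 0.0178), nor GAL10 without sml1Δ replicate 2 (-0.51, adjusted p = 0.011), sml1Δ replicate 3 (-0.55, adjusted p = 0.0149), SSDDCS replicate 2 (-0.50, adjusted p = 0.033), replicate 3 (-0.56, adjusted p = 0.0197) or replicate 4 (-0.54, adjusted p = 0.015). At 60 min relative to G1 limma called 0 members (0.452% of all genes, 3 members at an unadjusted p under 0.05).

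Averaged over the 11 time points that every replicate had, no member differed between the strains by limma, the only tool run on these means (0 called, 4 at an unadjusted p under 0.05, 7.27% of all genes called). A replicate number was taken to follow 1 culture over time, which the labels do not state. The lowest adjusted p were those of GAL4 (log2 0.23, adjusted p = 0.05), GAL7 (-0.21, adjusted p = 0.0764), GAL80 (0.16, adjusted p = 0.0829) and MTH1 (-0.34, adjusted p = 0.0836). MTH1 was lower in SSDDCS in the means of log2 values at all 12 time points and the strains did not overlap at 25, 45, 50 and 60 min, where 20.6%, 11%, 6.8% and 6.05% of all genes were lower without overlap, yet it was called at none. Its differences ran from -0.61 (5 min, adjusted p = 0.197) to -0.19 (10 min).

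**Figure D4:**
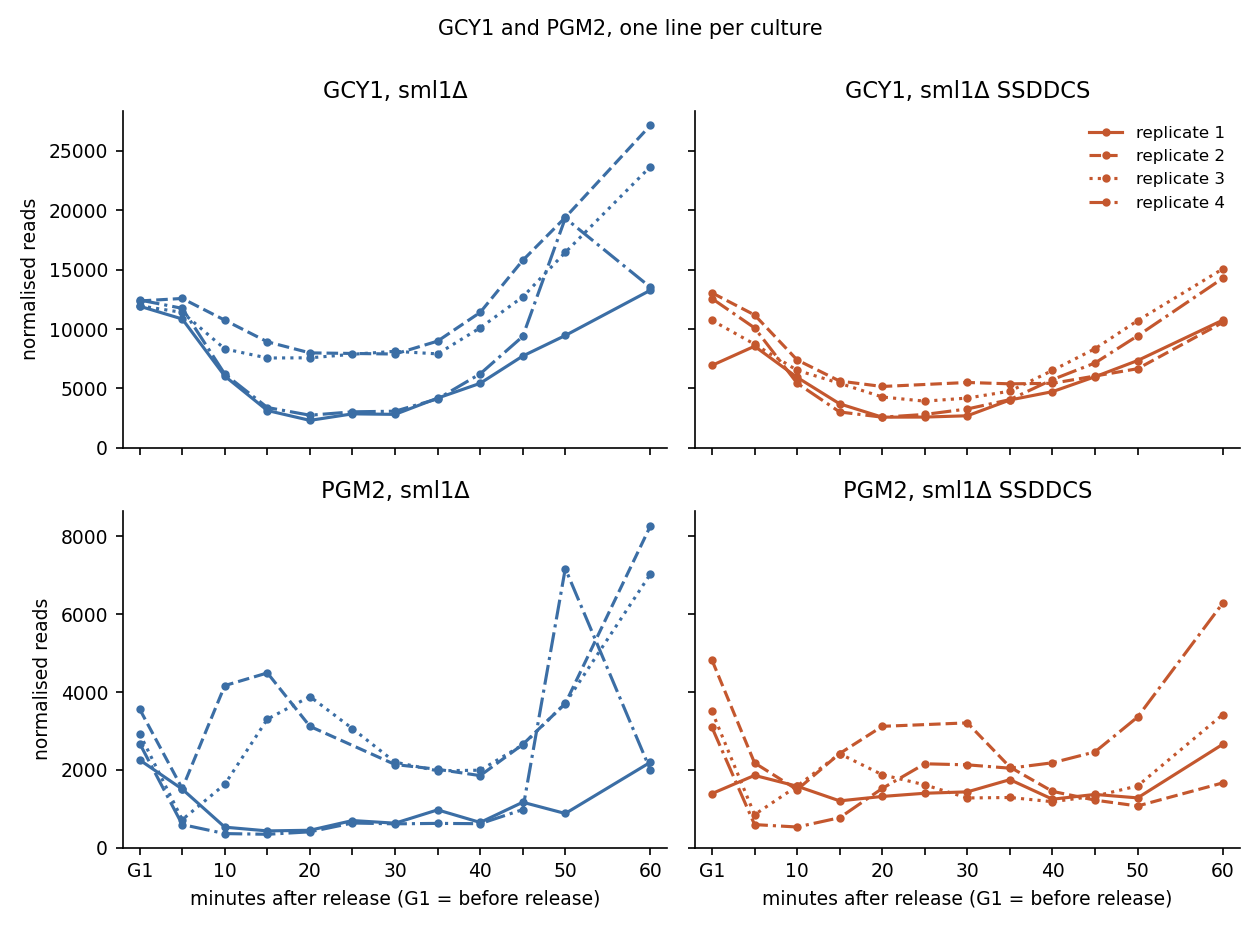
Normalised reads of GCY1 and PGM2 against minutes after release, 1 line per replicate, sml1Δ on the left and SSDDCS on the right. Replicates 2 and 3 of sml1Δ run above replicates 1 and 4 between 10 and 45 min, and replicate 4 of sml1Δ peaks at 50 min (PGM2 at 7175) before it drops at 60 min (2000).

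GCY1 fell and rose again. In G1 it read 11920, 12362, 11954 and 12443 in sml1Δ and 6941, 13044, 10724 and 12563 in SSDDCS. Its lowest group means, at 25 min, were 4589 and 3110, but these groups lack replicate 2. In sml1Δ replicates 1, 3 and 4 read 2312, 7578 and 2745 at 20 min and 2861, 7875 and 3031 at 25 min, each lower at 20 min. In SSDDCS replicates 1 and 4 were lower at 20 min and replicate 3 at 25 min. At 30 min sml1Δ read 2817, 7896, 8125 and 3084 and SSDDCS 2699, 5502, 4189 and 3272, log2 -1.32 (SE 0.33, adjusted p = 0.000466) and -1.48 (SE 0.33, adjusted p = 9.53e-05) from G1. The sml1Δ call was lost without sml1Δ replicate 4 (-1.09, adjusted p = 0.0125). By 60 min the means were 19398 and 12658. Between strains GCY1 was not called: the difference of log2 -0.89 at 50 min had an adjusted p of 0.0598 and was called without sml1Δ replicate 1 (-1.13, adjusted p = 0.00825).

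PGM2 varied widely among replicates, and the main limma fit called it in no comparison between strains or times. DESeq2 and the limma fit with a replicate block called its course in sml1Δ. In sml1Δ at 10 min it read 531, 4168, 1632 and 366, and at 30 min 633, 2140, 2201 and 616. In SSDDCS at 30 min it read 1438, 3210, 1281 and 2132. The difference of log2 0.69 at 30 min had a 95% interval from -0.64 to 2.03, which leaves room for large differences in either direction. In G1 it read 2257, 3561, 2930 and 2680 in sml1Δ, closer together than later, and 1394, 4821, 3503 and 3092 in SSDDCS. PGM2 was also the member without a Gal4 motif in the window searched.

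In SSDDCS the added GAL1-10 promoters could be set beside the native ones. DPB11, which initiates replication with Sld2 and Sld3, stood at 26619 ± 2348 (SD, n = 4) in G1 in SSDDCS and 407 ± 47.5 in sml1Δ, and DBF4, the regulatory subunit of the Cdc7 kinase, at 19858 ± 725 and 860 ± 53.6. From G1 to 5 min the group mean of DPB11 went to 14228 and that of DBF4 to 11346, log2 changes of -0.91 and -0.81 beside -0.78 for GAL10 and -0.15 for GAL1. The other factors changed by -0.47 (SLD2), -0.55 (SLD3), -0.56 (CDC45) and -0.45 (SLD7). Of the 6 factors 3 were called lower, close to the background, since 53.2% of all genes were called in either direction. At 60 min the changes from G1 were 0.43 for DPB11, 0.33 for DBF4, 0.36 for CDC45, 0.23 for SLD2, 0.12 for SLD3 and 0.14 for SLD7, beside 0.48 for GAL1 and 0.56 for GAL10. These factors also have native copies whose reads are in the same values, and the reads counted are of the mRNA of each factor, so a difference between them and the GAL genes was not tested. In sml1Δ, with native copies only, group means rose from G1 to 5 min. They went from 209 to 1103 for SLD2, 200 to 1578 for CDC45 and 860 to 1777 for DBF4. The others went from 407 to 620 for DPB11, 378 to 467 for SLD3 and 186 to 191 for SLD7.

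**Figure D5:**
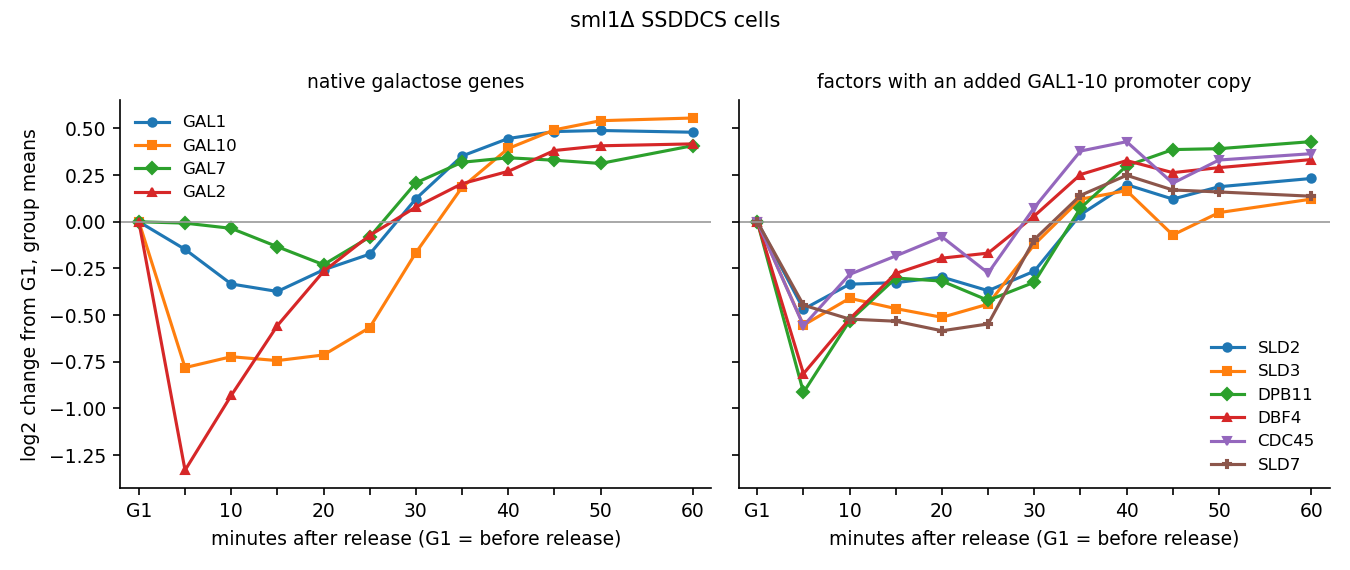
Log2 change from G1 of the group means in SSDDCS against minutes after release, for the native galactose genes (left) and the 6 factors with an added GAL1-10 promoter copy (right). Most curves dip after release and lie above 0 at 60 min, with GAL10 at 0.56 and DPB11 at 0.43.

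Other genes of the pathway came from lists grouped by function. Of 3 further Gal4 targets and neighbours of the cluster, the uracil permease gene FUR4, next to GAL1, was higher in SSDDCS at 45 and 50 min (0.72 and 0.86, where 13.5% and 9.2% of all genes were called), KAP104, next to GAL7, at 35 min (0.32, 27.5% of all genes), and PCL10 was lower at 4 time points (30 to 45 min, 13.5% to 31.3% of all genes). Of 7 enzymes beside the members (glucose kinases, UGP1, PGM1, YPR1 and LAP3), 1 was called between strains at 30 min, LAP3 (0.69, 31.3% of all genes called), with a list median of 0.12 beside -0.04 over all genes. PGM1, the minor phosphoglucomutase, was higher in SSDDCS at 45 min (0.39, 13.5% of all genes called) and lower at 60 min than in G1 in sml1Δ (-0.93) and SSDDCS (-0.83). Of 17 genes of glucose repression and signalling, 2 were higher in SSDDCS at 30 min, MIG3 (1.07) and NRG1 (0.80), and 1 was lower, SNF4 (-0.61), which encodes the activating subunit of the Snf1 kinase. The list median was -0.08, and 31.3% of all genes were called. At 35 min 2 were higher and 4 lower (27.5% of all genes) and at 40 min 1 was higher and 4 lower (19.8%). MIG1, the repressor of GAL genes, was called at no time point.

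The genes whose course over the 24 group means was most like that of GAL1, GAL2, GAL7 and GAL10 were ALK1 (Pearson r = 0.98), SSO2 (0.98), SRC1 (0.97), SFG1 (0.97) and MCK1 (0.96), out of 6085 genes compared, of which 61 had r above 0.9. All points share the libraries and the cell cycle. The members themselves had r of 0.98 for GAL1 and GAL10 and 0.92 for GAL2 and GAL7 with this profile, of which they are part, and 0.73 for GAL3, 0.62 for GAL4, 0.48 for MTH1, 0.44 for PGM2, 0.36 for GCY1 and -0.60 for GAL80.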

How the data were processed

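RNA-seq was made from total RNA of 94 yeast samples with an Illumina TruSeq kit (TruSeq RNA v2 in the study's methods, TruSeq Nano per the labels). The authors deposited signal values, that is, reads per gene divided by a DESeq2 size factor. The study's methods name bowtie2 and the R64-2-1 genome, and the submitters' processing notes name cutadapt, TopHat2 2.0.6, DESeq2 and sacCer3. The table had 2 further columns that matched no sample and were not used. Whole reads, recovered for the count tests, accounted for 100% of the values of each library (tolerance 0.0001 reads). SML1 was not analysed here.

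The 6414 genes whose mean reached 10 were tested (30 were left out) on log2(value + 1) by limma 3.58.1 in R 4.3.3, with a mean-variance trend and 24 strain-by-time means, two-sided, Benjamini-Hochberg adjusted within a contrast. A fold change on this scale understates low genes. The fits were tested on simulated data. The fits were repeated with pseudocounts of 0.1 and 5, without the filter, with equal library totals, quantile normalisation, DESeq2 1.42.0, edgeR 4.0.16, replicate blocks, and each replicate left out. Motifs and positions came from the RefSeq annotation of R64. The 10 members and the gene lists were chosen with earlier results of these data known. Named were all members, at most 3 called genes of a list, and the 5 genes most correlated with GAL1, GAL2, GAL7 and GAL10.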

Additional observations from a re-analysis of the deposited data

Results flagged for a closer look

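No library of the members in G1 or at 5, 30 or 60 min stood apart from its group: of 80 groups of 4 examined with Dixon's test, 0 were marked, where chance marks about 1 in 20. The strains' courses differed for GAL4 (interaction F-test, limma, adjusted p = 0.0023) and GAL80 (adjusted p = 0.00693). The strain difference at 30 min differed from that in G1 for GAL4 (adjusted p = 0.00457), with 0.55 upwards, and for GAL10 (adjusted p = 0.00492), with 0.56 downwards (log2 -0.56). Within replicates, GAL4 was higher at 30 min than in G1 in 4 of 4 SSDDCS replicates and in 1 of 4 of sml1Δ, and GAL10 was higher in 1 of 4 and in 4 of 4.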

How the results depend on the processing

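Of 59 single values recomputed in up to 20 settings (1069 values), 993 kept direction and side of the threshold, 71 lost and 4 gained a call, and 1 changed sign: GAL2 at 30 min ranged from -0.21 to 0.032 with 1 replicate left out, the last without sml1Δ replicate 2. Most of these values were calls in the main fit, so few of them could gain a call. Calls gained in other strain comparisons, such as GAL80 at 20 min with equal totals, lie outside this set. The 11 member-by-time strain calls became 3 with each time point alone, 17 with a replicate block, and 5 to 14 with 1 replicate left out. The 17 were GAL80 at 6 time points, GAL4 at 5, GAL7 at 4, and GAL3 and GCY1 at 1 each. With the block GAL7 was lower in SSDDCS at 30, 35, 45 and 50 min, GAL3 higher at 20 min and GCY1 lower at 50 min. Same-numbered replicates of the strains shared deviations in 38 of 47 groups paired by number (correlation over 0.1, median 0.39, lowest -0.36, highest 0.64). The main fit took no pairing from the numbers, so its calls for these genes depend on that choice. The interaction count of 2 became 5 with a replicate block within each strain, with GAL1, GAL7 and GAL10 added. That block was added after the data were seen. The count was 0 to 2 with 1 replicate left out. A replicate block left the course counts of 9 at 10 in sml1Δ, with PGM2 added, and 9 in SSDDCS, the whole-course count at 0, and the 16 calls of 30 and 60 min against G1 at 17. Without 1 replicate those 16 became 13 to 16. Exchanging the 50 and 60 min libraries of sml1Δ replicate 4 changed no count. The lowest member, GAL4, held at least 209 normalised reads in every library, and the part of depth in these results was not tested.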

Other observations

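In the sml1Δ cultures PGM2, GCY1 and GAL2 split by replicate in like manner. At 20 min PGM2 read 451, 3120, 3886 and 411 in replicates 1 to 4, GCY1 2312, 7992, 7578 and 2745, and GAL2 37927, 58269, 49829 and 27405. In SSDDCS the same genes read 1320, 3121, 1878 and 1526 for PGM2, 2582, 5164, 4280 and 2580 for GCY1, and 50668, 49448, 48214 and 39488 for GAL2. For GAL80 at that time the replicates of sml1Δ lay between 2943 and 3436.

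In sml1Δ replicate 4, PGM2 read 7175 at 50 min and 2000 at 60 min, and GCY1 19329 and 13512, whereas the other sml1Δ replicates read higher at 60 min than at 50 min for both genes. The cause was not tested.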
